A study of Mus musculus with 19 samples.

Results

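Dlg scaffolds and Dlgap proteins were followed as a group of 9 genes of the 35596 measured in the mouse vomeronasal organ (VNO), the sensory organ of the nose that detects pheromones. The 9 genes were chosen by name, as the 5 Dlg genes (Dlg1, Dlg2, Dlg3, Dlg4 and Dlg5) and the 4 Dlgap genes (Dlgap1, Dlgap2, Dlgap3 and Dlgap4), and they carry 117 of the 116072 transcripts that could be paired with a gene. For Dlg2 the 17 annotated transcripts were also followed one by one. Estimated read counts were summed per gene and are given as CPM, the count of a gene per 1e6 counts of its library, with library totals scaled by the trimmed mean of M-values (TMM).

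mRNA was sequenced from whole VNOs of female mice at postnatal day 21 to ask what the loss of Smad4, the shared mediator of TGFβ and BMP signaling, changes in vomeronasal sensory neurons (VSNs). AP-2εCre, a knock-in at Tfap2e, recombines in immature basal VSNs, and OMPCre, a knock-in at Omp, recombines in mature apical and basal VSNs. Each line had 3 groups of 3 libraries. The controls without Cre carried Smad4flox/flox (the labels call them wild type), the heterozygous controls (Het) carried AP-2εCre+/- or OMPCre+/-, and the conditional knockouts (cKO) carried AP-2εCre+/-/Smad4flox/flox or OMPCre+/-/Smad4flox/flox. Every cKO animal thus also lacked a working copy of Tfap2e or Omp, which only the Het controls of its line shared. The labels name the 3 libraries of a group as biological replicates. The animals' names took either of 2 forms, a letter with a number or the line with a number, and the labels give no batch.

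Dlg proteins are membrane-associated guanylate kinases (MAGUKs). Their PDZ domains hold receptors, channels and adhesion proteins at the membrane, and their guanylate kinase-like domain binds the Dlgap proteins, which link them to Shank and Homer deeper in the postsynaptic density. Dlg1 and Dlg5 are also known for roles at cell junctions and in cell polarity, while Dlg2, Dlg3 and Dlg4 are best known at glutamatergic synapses. VSN axons form synapses in the accessory olfactory bulb, which was not part of the tissue sequenced, so the RNA measured here came from the cell bodies in the nose and their surroundings.

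Library totals were 43385516 to 134042284 estimated counts over the 18 labelled libraries, with a median of 63096714. All 4 markers of mature VSNs (Omp, Trpc2, Gnai2 and Gnao1) were at 1 CPM or more in all 18 libraries. Smad4 itself was 54.4 to 62.5 CPM in the OMPCre cKO libraries and 64.8 to 83.8 CPM in their 6 controls (log2 fold change -0.35, SE 0.09; adjusted p = 0.909, edgeR). In the AP-2εCre line Smad4 was 33.8, 66.1 and 66.5 CPM in the cKO against 39.6 to 81.0 CPM in the controls, so the deletion was not detectable in a whole-organ count of the full gene. Tfap2e was 5.44 to 8.88 CPM in AP-2εCre Het and 10.0 to 12.5 CPM in AP-2εCre cKO against 14.01 to 16.6 CPM in Smad4flox/flox. Omp was 225 to 248 CPM in OMPCre Het and 238 to 287 CPM in OMPCre cKO against 305 to 474 CPM in Smad4flox/flox. In a whole organ, fewer cells of a type and less RNA per cell cannot be told apart.

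Dlg2 encodes a close relative of the postsynaptic scaffold encoded by Dlg4 and is the largest of the 9 genes, with 1972576 bases on the plus strand of mouse chromosome 7 (GRCm38, chr7:90476672-92449247). Its 5 protein-coding transcripts begin at 4 different start codons spread along the gene, which is why their first coding bases are shown here. Each line gives 45 bases from the start codon, read from the GENCODE vM21 transcripts of that build, with the ATG in capitals.

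Dlg2-217, start codon at chr7:90504898 in exon 3: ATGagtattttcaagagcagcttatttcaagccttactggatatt

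Dlg2-204 and Dlg2-201, start codon at chr7:91091007 in exon 1: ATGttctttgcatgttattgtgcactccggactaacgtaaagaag

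Dlg2-203, start codon at chr7:91711676 in exon 1: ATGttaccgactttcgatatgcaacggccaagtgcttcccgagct

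Dlg2-202, start codon at chr7:92066366 in exon 2: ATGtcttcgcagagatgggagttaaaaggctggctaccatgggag

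The codons after the ATG differ between the 4 starts, while the exons downstream are largely shared: 80.9% to 96.7% of the 75-base words of Dlg2-217, Dlg2-201, Dlg2-203 and Dlg2-202 are also found in Dlg2-204. Only 20 of the 7416 words of Dlg2-204 (0.27%) are found in no other Dlg2 transcript, and 1.4% of those of Dlg2-201. With reads of 75 bases, a read rarely pointed to a single transcript, and the split between transcripts is an estimate made by the quantifier. At the level of the gene this did not matter, because no 75-base word of Dlg2, Dlg3, Dlg5 or any Dlgap gene was found in another gene, and 0.125% of those of Dlg1 and 0.272% of those of Dlg4 were.

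Levels can be set against each other between genes only per length. The deposited TPM values, which account for transcript length, were therefore summed per gene in the 6 Smad4flox/flox libraries of both lines. Dlgap4, a Dlgap family member, stood first at 71.78 ± 10.51 TPM (SD, n = 6), followed by Dlg1 at 47.2 ± 10.7 TPM. Dlg5 (26.2 ± 5.48 TPM) and Dlg3 (24.9 ± 4.89 TPM) came next and were not separated, since Dlg5 was above Dlg3 in 4 of 6 libraries (exact sign-flip permutation test, two-sided, p = 0.47). Below them stood Dlg4 (16.8 ± 7.39 TPM), Dlg2 (8.06 ± 3.43 TPM) and Dlgap3 (5.61 ± 2.13 TPM). Dlgap1 (0.960 ± 0.186 TPM) and Dlgap2 (0.131 ± 0.206 TPM) were the lowest. The other 7 of the 8 neighbouring pairs had the same order in 6 of 6 libraries, which gives p = 0.031, the smallest that this exact test allows.

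The order depended on which transcripts were summed. Annotated fragments shorter than 1000 bases held a median of 43.6% to 74% of the TPM of Dlg1, Dlg2, Dlg3, Dlg4, Dlg5 and Dlgap4 but 6.0% to 19.1% of their counts. Summing only protein-coding transcripts of at least 1000 bases put Dlg1 (19.3 ± 5.92 TPM) and Dlgap4 (17.8 ± 3.85 TPM) together at the top (exact p = 0.25, n = 6). Dlg3 moved down to 2.99 ± 1.63 TPM, and Dlgap3 (4.43 ± 1.44 TPM) then stood above it in 5 of 6 libraries (exact p = 0.062). Fragments under 1000 bases held a median of 52.5% of the TPM of Dlg3 over the 18 libraries, and Dlg3-208, a processed transcript of 3316 bases without an annotated protein, held 62.5% of its count. On both scales Dlgap1 and Dlgap2 were last, with 0.720 ± 0.231 and 0.0254 ± 0.0279 TPM over long coding transcripts.

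**Figure D1:**
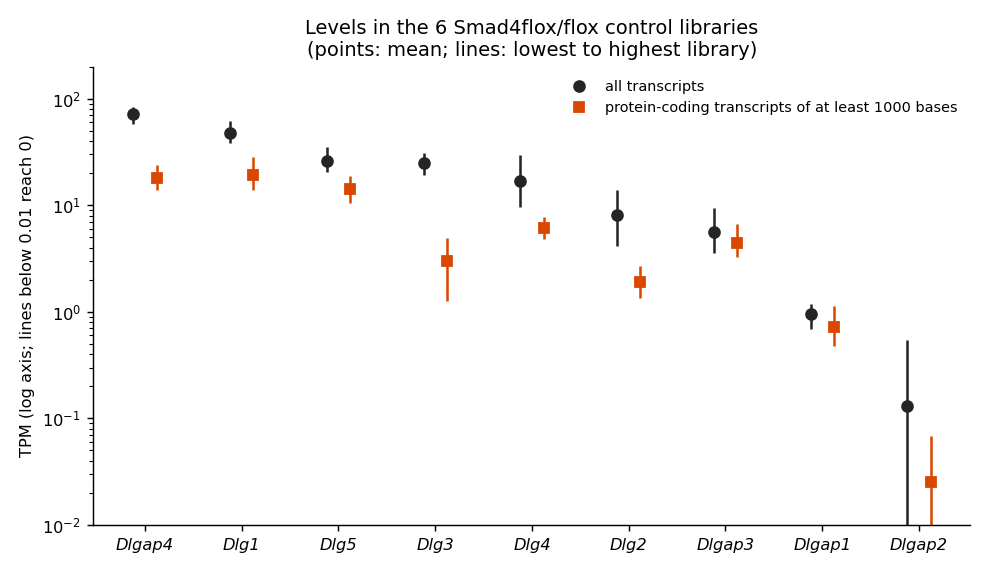
TPM of each gene (log axis) in the 6 Smad4flox/flox libraries, with the mean as a point and a line from the lowest to the highest library. Circles sum all transcripts and squares sum protein-coding transcripts of at least 1000 bases; Dlg3 drops from 24.9 to 2.99 TPM between them, and Dlgap1 and Dlgap2 are last on both.

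Over all 18 libraries the genes differed in how steady they were. Dlg5 (coefficient of variation of CPM 7.12%), Dlg3 (7.201%), Dlg1 (7.71%), Dlgap4 (8.41%) and Dlg4 (8.54%) varied least. Dlgap1 (12.1%), Dlgap3 (15.5%) and Dlg2 (17.9%) varied more. Dlgap2 was read with 0 to 28 counts per library, median 12, and varied by 63.1%; it was at 0 counts in replicate 2 of OMPCre Smad4flox/flox, replicate 3 of OMPCre Het and replicate 3 of OMPCre cKO. A count of 0 limits only the counting error of that library.

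**Figure D2:**
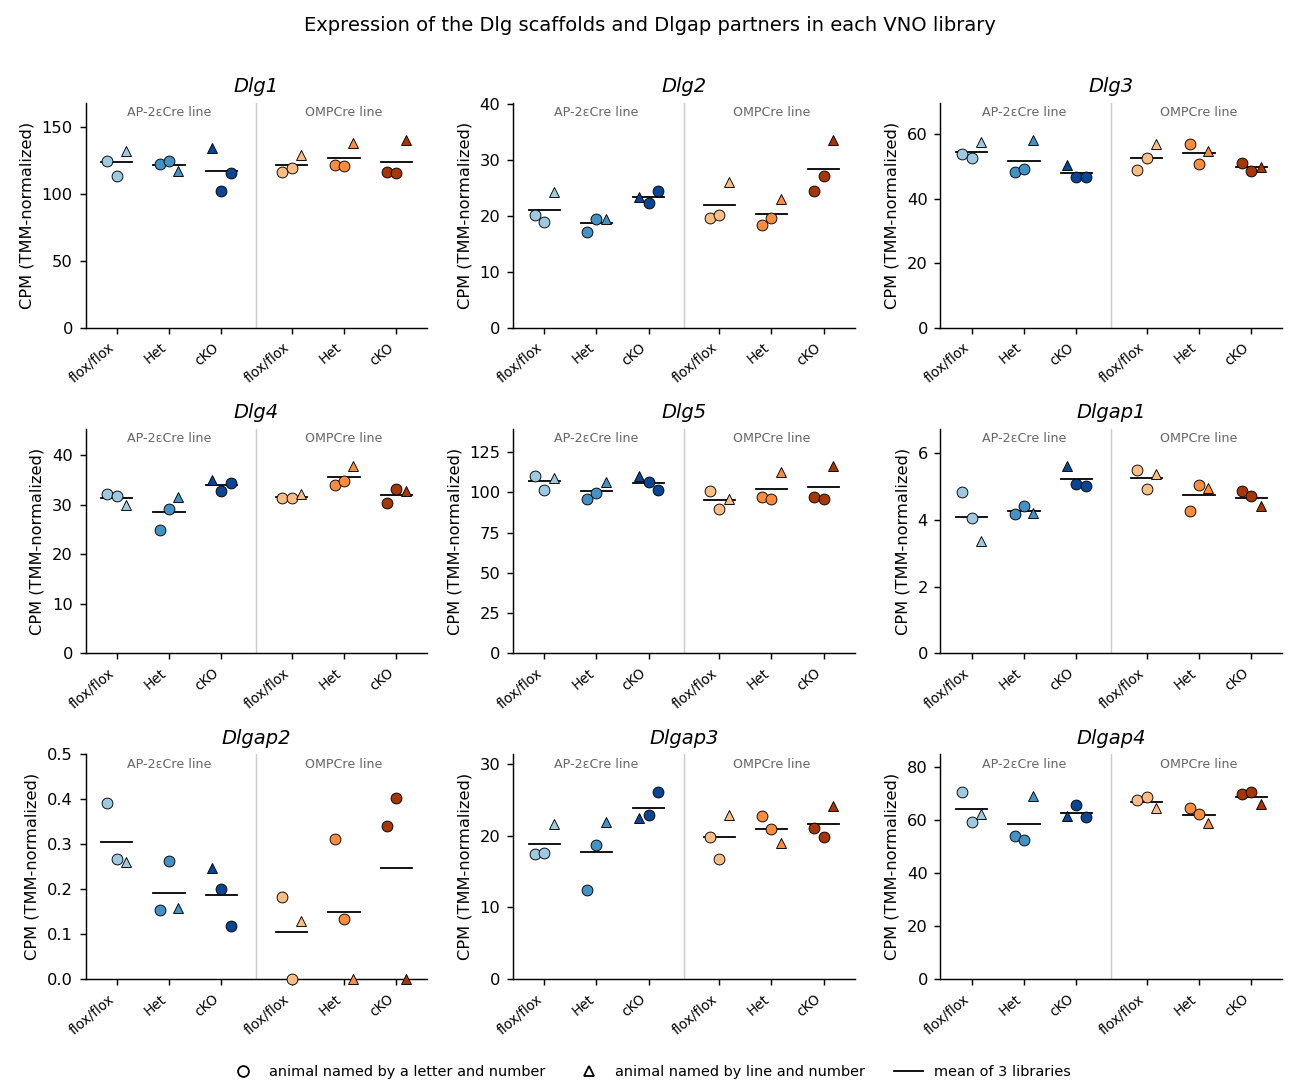
TMM-scaled CPM of each gene in each of the 18 libraries, by line and group, with the mean of 3 libraries as a line; circles and triangles mark the 2 forms of animal name. Dlg2 reaches 24.4 to 33.5 CPM in OMPCre cKO against 18.3 to 25.96 CPM in the controls, and the groups overlap at one control library; Dlgap1, Dlgap3 and Dlg4 are without overlap in AP-2εCre, and Dlgap2 scatters down to 0.

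To ask whether Smad4 loss in immature basal VSNs moved these genes, the 3 AP-2εCre cKO libraries were set against the 6 controls of the line. None of the 9 genes passed the test at an adjusted p under 0.05 (edgeR quasi-likelihood test, two-sided, Benjamini-Hochberg over 18495 genes), against 0.0378% of all genes tested. At an unadjusted p under 0.05 there was 1 of 9, where 10.2% of all genes had one. The log2 fold change was positive for 6 of the 9, against 50.6% of all genes, and its median was 0.04 against 0.003.

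Dlgap3, a Dlgap protein of the postsynaptic density, had the lowest p in this comparison. It was 22.5, 22.9 and 26.1 CPM in AP-2εCre cKO, 17.5, 17.6 and 21.6 CPM in Smad4flox/flox and 12.5, 18.7 and 22.0 CPM in Het. All cKO values lay above all controls, the closest by less than 1 CPM. The fold was 1.30 (95% interval 1.02 to 1.66; log2 0.38, SE 0.16), with an unadjusted edgeR p of 0.0356 and an adjusted p of 0.447. With counts rebuilt from length-scaled TPM the log2 difference was 0.90 (adjusted p = 0.465, edgeR). Dlgap3-204, a processed transcript of 438 bases, held 6.56 and 6.75 TPM in cKO replicates 2 and 3 and 0 in replicate 1. In the controls of the line it held 2.31 and 1.97 TPM in Smad4flox/flox replicates 1 and 2, and 0 in the rest. Its part in the 0.90 was not tested. With the estimated counts the log2 difference was 0.56 among animals named by a letter (2 cKO and 4 controls). It was 0.04 among those named by the line (1 cKO and 2 controls).

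Dlgap1, the best-known Dlgap protein at synapses, was low throughout. It was 5.608, 5.061 and 5.001 CPM in AP-2εCre cKO, against 4.825, 4.041 and 3.354 CPM in Smad4flox/flox and 4.17, 4.42 and 4.20 CPM in Het, again without overlap. The fold was 1.26 (95% interval 0.998 to 1.58), with an edgeR adjusted p of 0.495. It rests on 155 to 709 counts per library. With counts rebuilt from length-scaled TPM the log2 difference was 0.01, where the estimated counts gave 0.33.

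Dlg4, the core MAGUK of the postsynaptic density, was 35.0, 32.7 and 34.3 CPM in AP-2εCre cKO. Its controls were 32.02, 31.79 and 29.99 CPM in Smad4flox/flox and 24.8, 29.1 and 31.6 CPM in Het, so the cKO values lay above all 6 by a narrow margin. The fold was 1.14 (95% interval 0.993 to 1.31; edgeR adjusted p = 0.516). For all 3 genes without overlap the exact permutation test of CPM over the 84 splits gave unadjusted p of 0.048 (Dlgap3), 0.012 (Dlgap1) and 0.036 (Dlg4), the second being the smallest possible. Over all genes tested, 2.21% had every cKO library above every control.

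Dlg2 was 23.3, 22.2 and 24.4 CPM in AP-2εCre cKO, 20.1, 18.9 and 24.3 CPM in Smad4flox/flox and 17.2, 19.5 and 19.4 CPM in Het. Replicate 3 of Smad4flox/flox lay within the cKO range, so the groups overlapped. The fold was 1.18 (95% interval 0.998 to 1.38; log2 0.23, SE 0.11), with an edgeR adjusted p of 0.496 and an exact permutation p of 0.083 (3 against 6 libraries). With length-scaled TPM in place of counts the log2 difference was 0.03. With the estimated counts it was 0.30 among animals named by a letter (2 cKO and 4 controls). It was 0.10 among those named by the line (1 cKO and 2 controls).

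Dlg3, the X-linked MAGUK, pointed the other way without passing: 50.5, 46.7 and 46.6 CPM in AP-2εCre cKO against 48.2 to 58.0 CPM in the controls (fold 0.905, 95% interval 0.797 to 1.03). For Dlg1 (fold 0.961, interval 0.835 to 1.11), Dlg5 (1.02, 0.919 to 1.14) and Dlgap4 (1.03, 0.874 to 1.21) the intervals reached no further than 1.21-fold in either direction. Dlgap2 could not be judged, since its interval ran from 0.343 to 1.71.

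No marker of another cell type was called in this comparison, and no marker of these lists was at 0 in all libraries of a group. By sign, 7 of 7 markers of immature neurons and progenitors had a positive log2 fold change, 2 of them with an unadjusted p under 0.05 (summed 294 to 393 CPM in cKO, 234 to 325 CPM in controls). The same held for 5 of 5 immune markers, 2 of them under 0.05 (177 to 187 against 140 to 166 CPM), and for 4 of 5 markers of smooth muscle and pericytes, 2 under 0.05 (1822 to 2307 against 1320 to 2007 CPM). It held for 0 of 4 markers of ciliated respiratory epithelium, 1 of them lower under 0.05 (280 to 404 against 411 to 545 CPM), and for 1 of 6 markers of epithelial support and basal cells, with a median of -0.29 and 1 lower under 0.05 (949.9 to 1259 against 1117 to 2790 CPM). Of these 5 sums only the immune and ciliated ones did not overlap, and 50.6% of all genes were positive. The markers of mature VSNs, positive for 3 of 4 with 1 under 0.05, summed to 1161 to 1343 CPM in cKO and 816.9 to 1160 CPM in controls, also without overlap. Those of main olfactory neurons, positive for 4 of 5 with 1 under 0.05, summed to 243 to 276 against 215.0 to 288 CPM. The part of these cells in the values above was not tested.

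For Smad4 loss in mature VSNs, the 3 OMPCre cKO libraries were set against the 6 controls of that line. None of the 9 genes passed the test at an adjusted p under 0.05 (edgeR, 18623 genes), where 0% of all genes passed, while 735 genes had an unadjusted p under 0.05 and DESeq2 called 45 genes (0.179%), none of them a Dlg or Dlgap gene. At an unadjusted p under 0.05 there was 1 of 9, Dlg2, against 3.95% of all genes. The log2 fold change was positive for 5 of 9, against 48.7% of all genes.

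Dlg2 was 24.4, 27.1 and 33.5 CPM in OMPCre cKO, 19.5, 20.1 and 25.96 CPM in Smad4flox/flox and 18.3, 19.6 and 23.0 CPM in Het. Replicate 3 was the highest of its group in all 3 groups, and the replicate 3 control without Cre lay above the lowest cKO library. The means were 28.3 ± 4.70 CPM (SD, n = 3) and 21.1 ± 2.84 CPM (SD, n = 6). The fold was 1.34 (95% interval 1.10 to 1.64; log2 0.42, SE 0.13), with an unadjusted edgeR p of 0.00912, an adjusted p of 1 and an exact permutation p of 0.024. Replicate 3 of each OMPCre group was the animal named by the line. Within that form the log2 difference was 0.45 (33.5 against 22.96 and 25.96 CPM, 1 cKO and 2 controls). Within the letter form it was 0.41 (24.4 and 27.1 against 18.3 to 20.1 CPM, 2 cKO and 4 controls). Splits this small show a direction only. Leaving out replicate 3 of the cKO lowered the log2 fold change to 0.29.

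The other scaffolds were close to their controls in the OMPCre line. Dlg1 (fold 0.999, 95% interval 0.878 to 1.14), Dlg3 (0.931, 0.836 to 1.04), Dlg4 (0.954, 0.85 to 1.07) and Dlg5 (1.04, 0.91 to 1.2) had intervals that end within 1.2-fold in either direction. Dlgap1 was 4.85, 4.71 and 4.41 CPM in cKO against 4.25 to 5.48 CPM in controls (fold 0.931, 0.755 to 1.15). Dlgap3 was 21.1, 19.8 and 24.2 CPM against 16.7 to 22.8 CPM (fold 1.07, 0.895 to 1.27), and Dlgap4 was 66.0 to 70.8 CPM against 59.2 to 68.8 CPM (fold 1.07, 0.961 to 1.18). Dlgap2 had an interval from 0.256 to 15.2 and gave no information.

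Here too no marker of another cell type was called, where edgeR called 0% of all genes. The log2 fold change was positive for 5 of 5 markers of smooth muscle and pericytes (summed 1940 to 3151 CPM in cKO, 1648 to 2647 CPM in controls) and for 0 of 4 erythroid markers (2873 to 4661 against 2428 to 6709 CPM), with no unadjusted p under 0.05. It was positive for 1 of 5 markers of main olfactory neurons, with a median of -0.29 (156 to 214 against 155 to 311 CPM), and for 1 of 6 markers of glia, 2 of which were lower with an unadjusted p under 0.05 (131 to 156 against 151 to 189 CPM). For mature VSNs it was positive for 2 of 4 markers, 1 of them with an unadjusted p under 0.05 (990 to 1009 against 899 to 1203 CPM). For immature neurons and progenitors it was positive for 5 of 7, none under 0.05 (274 to 370 against 279 to 358 CPM). All these sums overlapped between the groups, and their part in the value of Dlg2 was not tested.

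The 2 kinds of control were compared in each line, because the Het animals carry the Cre knock-in and the others do not. None of the 9 genes passed in AP-2εCre (0.0487% of all genes) or in OMPCre (0.0752%). Dlg2 was on average 0.17 lower in AP-2εCre Het and 0.12 lower in OMPCre Het on the log2 scale (edgeR adjusted p of 1 and 0.960), so the distance of the cKO from Het was greater than from Smad4flox/flox. Without replicate 3 of OMPCre Smad4flox/flox, Dlg2 in OMPCre Het was instead 0.04 higher on that scale. Against Het alone the log2 fold change of Dlg2 was 0.33 in AP-2εCre and 0.48 in OMPCre, and against Smad4flox/flox alone it was 0.14 and 0.37. Dlg4 in OMPCre Het (34.0, 34.7 and 37.7 CPM) lay above Smad4flox/flox (31.3, 31.4 and 32.1 CPM) in every library, with an edgeR adjusted p of 0.833 and an exact permutation p of 0.1, the smallest that 3 against 3 allows. Markers of main olfactory neurons moved with that pair of groups, at a sum of 264 to 311 CPM in OMPCre Het and 155 to 183 CPM in Smad4flox/flox, and their part was not tested.

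**Figure D3:**
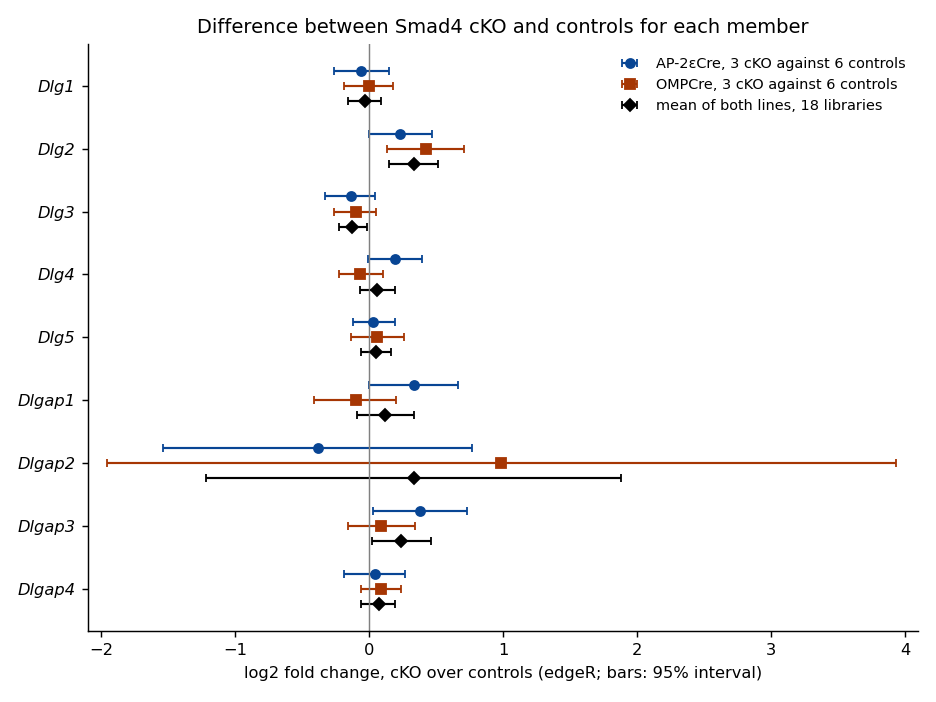
Log2 fold change of cKO over controls for each gene with its 95% interval, for AP-2εCre, OMPCre (3 cKO against 6 controls each) and the mean of both lines (18 libraries). Dlg2 lies to the right of 0 in all 3 and its interval excludes 0 for OMPCre (0.13 to 0.71) and for the mean (0.15 to 0.51); the bar of Dlgap2 is the widest.

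Both lines were then fitted together over the 18 libraries, each line with its own controls, which reuses the libraries above. The difference between the lines was called for none of the 9 genes, where 0% of all genes were called by edgeR, 956 of 19465 genes had an unadjusted p under 0.05 and DESeq2 called 19. At an unadjusted p under 0.05 there were 2 of 9, against 4.91% of all genes. Dlgap1 was 0.43 apart on the log2 scale (95% interval 0.05 to 0.80; unadjusted p of 0.0276, adjusted p = 1, edgeR) and Dlg4 was 0.26 apart (0.01 to 0.50; unadjusted p of 0.0389, adjusted p = 1), both further to the positive side in AP-2εCre. For Dlg2 the lines differed by -0.20 (95% interval -0.56 to 0.17), which leaves room for a difference in either direction.

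For the mean cKO effect of both lines, none of the 9 genes passed at an adjusted p under 0.05, against 0.117% of all genes, and 3 of 9 had an unadjusted p under 0.05, against 8.8% of all genes. Dlg2 had the lowest p of the 9, with a fold of 1.26 (95% interval 1.11 to 1.42; log2 0.33, SE 0.09; unadjusted p of 0.00121, adjusted p = 0.233, edgeR). With the form of the animal name as a term of the fit it passed, at an adjusted p of 0.0339 and an unchanged log2 value of 0.33, while DESeq2 gave an adjusted p of 0.0848, the replicate block 0.0565, and leaving out single libraries 0.102 to 0.553. Dlg3 had a mean fold of 0.917 (0.853 to 0.986; adjusted p = 0.489) and Dlgap3 of 1.18 (1.02 to 1.37; adjusted p = 0.536). The remaining 6 genes had adjusted p-values of 0.795 or more. In the same fit no marker of another cell type was called, and the log2 fold change was positive for 7 of 7 markers of immature neurons and progenitors (median 0.24, 1 with an unadjusted p under 0.05), 5 of 5 immune markers (0.13, 1), 4 of 5 of smooth muscle and pericytes (0.23, 2), 2 of 6 of epithelial support and basal cells (-0.46, 1 higher) and 0 of 4 of ciliated epithelium (-0.22, none). The log2 fold change was positive for 1 of 6 glia markers (median -0.12, 1 lower under 0.05) and 1 of 4 erythroid markers (-0.14, 1 lower). For mature VSNs it was 1 of 4 (-0.01, 1 higher), for main olfactory neurons 1 of 5 (-0.09, none) and for endothelium 2 of 5 (-0.05, none). Cartilage and bone had 3 of 4 (0.10, 1 lower). The part of these cell types in the values of Dlg2, and of Grin2c given further on, was not tested.

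The single transcripts of Dlg2 gave an estimated split of its count, since few reads point to a single transcript. Dlg2-204, the longer coding transcript from the start codon at chr7:91091007, held 68.3% of the Dlg2 count on average over 18 libraries (57.5% to 84.4%), from 552 to 2163 estimated counts. With Dlg2-201, which has the same start codon and held 3.97%, it made up 72.3% ± 6.41 (SD, n = 18). Dlg2-208, a processed transcript that begins further downstream and has no annotated protein, was the next largest at 14.8% (0% to 23.9%). Dlg2-214, Dlg2-213 and Dlg2-212, short transcripts of the downstream end, held 3.57%, 3.82% and 2.08%. Coding transcripts from the other 3 start codons were at 0 counts in most libraries, with Dlg2-217 at 0 in 13 of 18, Dlg2-202 in 13 and Dlg2-203 in 16. Where they were read, Dlg2-217 held 2.34% to 9.78% of the Dlg2 count in 5 libraries of 5 different groups, and Dlg2-202 and Dlg2-203 reached at most 2.23% and 0.333%. In all, 7 transcripts had a mean of at least 10 counts, 10 were below it, and 2 of those (Dlg2-209 and Dlg2-205) were at 0 counts in all 18 libraries.

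**Figure D4:**
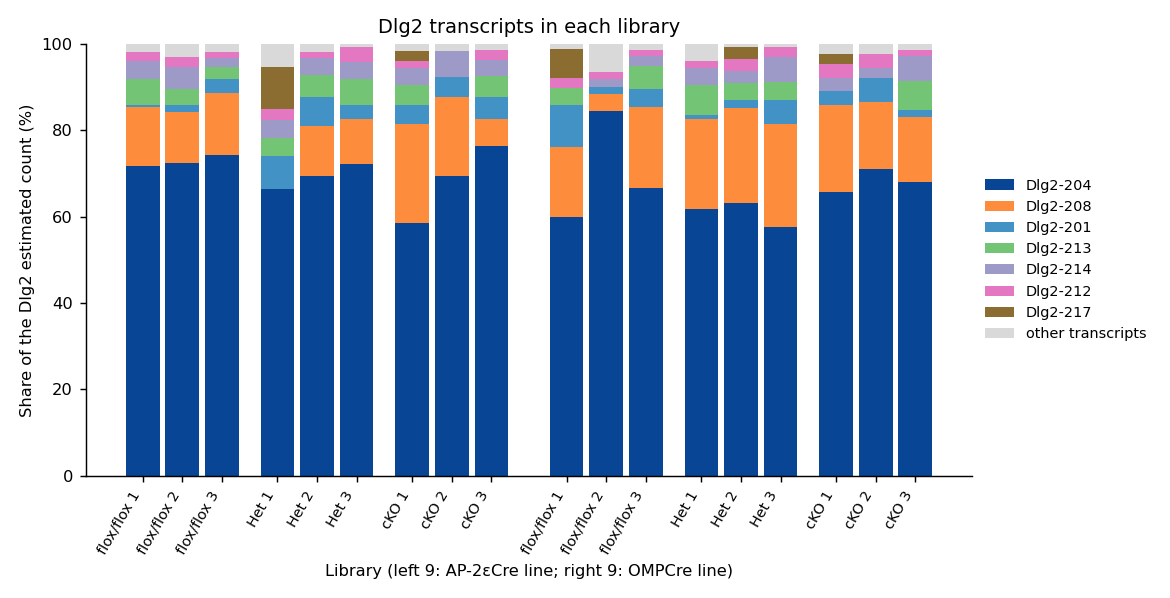
Share of the Dlg2 estimated count (percent) held by each of the 7 transcripts with a mean of at least 10 counts, in each library, with the other 10 in grey; each bar sums to 100%. Dlg2-204 is the largest part of every bar, from 57.5% to 84.4%, the 3 cKO bars of AP-2εCre spread beyond their controls for Dlg2-204 and Dlg2-208, and those of OMPCre lie within theirs for both.

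The shares overlapped between cKO and controls for all 7 transcripts in both lines. Dlg2-204 held 68.1% ± 9.05 of the count in AP-2εCre cKO and 71.1% ± 2.76 in the controls (3 against 6 libraries, exact permutation p = 0.49). In OMPCre it held 68.3% ± 2.60 and 65.6% ± 9.70 (exact permutation p = 0.70). The share of Dlg2-208 was 15.8% ± 8.62 against 10.3% ± 5.27 in AP-2εCre (exact permutation p = 0.29) and 16.9% ± 2.73 against 17.6% ± 7.19 in OMPCre (exact permutation p = 0.92). None of the 7 transcripts had an exact permutation p under 0.05 in either line. Between the controls of the OMPCre line the share of Dlg2-204 was 60.03%, 84.4% and 66.6% in Smad4flox/flox and 61.8%, 63.2% and 57.5% in Het, so a single library carried the upper end of the range. Summed with Dlg2-201, which has the same start codon, it was 62.8% to 65.2% in OMPCre Het, below the 69.7% to 86.0% of Smad4flox/flox and the 69.2% to 76.5% of cKO without overlap. The 6 transcripts that start furthest downstream, Dlg2-208 among them, summed to 31.3% to 36.3% in OMPCre Het, above the 10.8% to 28.02% of Smad4flox/flox and the 21.3% to 29.1% of cKO. Between Het and Smad4flox/flox both sums had an exact permutation p of 0.1, the smallest that 3 against 3 allows, and the sums were picked after their values were seen. In AP-2εCre the same 2 sums overlapped between all 3 groups (exact permutation p of 0.8 and 0.5 between the controls).

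In the fit over all transcripts, none of the 8 Dlg2 transcripts that could be tested in each line was called (0% of 58883 transcripts in AP-2εCre, where 4.84% had an unadjusted p under 0.05 and DESeq2 called 1047, or 1.22% of those it tested, and 0.00337% of 59367 in OMPCre, where 2.53% did and DESeq2 called 825, or 0.974%). In simulated counts with 200 transcripts changed by log2 1, edgeR recovered 0% of them in either line. The lack of a call here therefore cannot exclude a change of that size. DESeq2 recovered 33% in AP-2εCre and 26% in OMPCre, with 469 and 464 false calls. Dlg2-204 had a log2 fold change of 0.17 in AP-2εCre (SE 0.16, 95% interval -0.20 to 0.54; edgeR adjusted p = 1). In OMPCre it was 0.47 (SE 0.19, interval 0.04 to 0.90; unadjusted p of 0.0348, adjusted p = 1), close to the 0.42 of the whole gene. Dlg2-208, with intervals of -1.82 to 3.38 in AP-2εCre and -0.80 to 1.46 in OMPCre, was too variable between libraries for a difference to be detectable.

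Smad4 acts on DNA together with receptor-activated Smads, so the 17 RefSeq promoter windows of the 9 genes (250 bases before to 50 after a start, GRCm38.p6) were searched on both strands for 3 Smad motifs. No window was given for Dlgap2. The core CAGACA was in 3 of the 17 windows, with 1 at Dlg2 and 2 at Dlgap1, where 21% of all 32851 promoter windows hold it. GGCGCC was in 2, at Dlg3 and Dlg4, where 11.9% of all windows hold it. The palindrome GTCTAGAC, which contains part of the core, was in none, where 0.213% of all windows hold it. The stretches before 3 starts of Dlg2 are shown because they precede the 2 transcripts given most of the count and another mostly at 0. Each runs up to the base before the annotated transcript, on the plus strand, with a match in capitals. The letters TGTCTG are CAGACA read from the other strand, and a match describes the letters and not a bound site.

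Before Dlg2-204, chr7:91090536-91090705: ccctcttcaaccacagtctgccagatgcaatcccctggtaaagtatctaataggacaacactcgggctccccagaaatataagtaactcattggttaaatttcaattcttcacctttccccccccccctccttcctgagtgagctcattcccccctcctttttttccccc

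Before Dlg2-202, chr7:92062144-92062393: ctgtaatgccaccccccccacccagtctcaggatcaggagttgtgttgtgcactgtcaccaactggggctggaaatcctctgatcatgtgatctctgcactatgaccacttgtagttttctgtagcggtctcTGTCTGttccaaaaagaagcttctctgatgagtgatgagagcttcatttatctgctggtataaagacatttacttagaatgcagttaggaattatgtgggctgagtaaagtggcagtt

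Before Dlg2-208, chr7:92234720-92234922: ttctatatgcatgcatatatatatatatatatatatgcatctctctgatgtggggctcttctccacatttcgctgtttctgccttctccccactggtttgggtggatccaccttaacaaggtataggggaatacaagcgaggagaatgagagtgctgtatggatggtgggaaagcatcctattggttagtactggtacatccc

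The stretches before Dlg2-204 and Dlg2-208, which held most of the count, have no match, and the stretch before Dlg2-202, which was at 0 counts in 13 of 18 libraries, has one. A relation between these letters and the use of a start was not tested.

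Proteins known to bind Dlg scaffolds or to sit with them were counted in 5 lists of 89 genes in all. In AP-2εCre none of the 87 that could be tested passed at an adjusted p under 0.05, and at an unadjusted p under 0.05 there were 14 higher (4.18% of all genes) and 2 lower (6.04%) in cKO. In OMPCre none of 86 passed, with 6 higher (2.06% of all genes) and 0 lower (1.88%). For the mean of both lines 1 of 86, Grin2c, passed, with 13 higher (4.62% of all genes) and 4 lower (4.17%) at an unadjusted p under 0.05. Positive log2 fold changes were found for 56 of 87 in AP-2εCre, 48 of 86 in OMPCre and 57 of 86 for the mean, against 50.6%, 48.7% and 48.3% of all genes. These are counts over lists chosen with results of these libraries known, and nothing is read from them about the lists as such.

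Glutamate receptors and channels had median log2 fold changes of 0.18 in AP-2εCre and 0.11 in OMPCre, and adhesion partners of 0.15 and 0.06. The inner postsynaptic scaffold and its enzymes had 0.09 and 0.03, other MAGUKs and their L27 partners 0.04 and -0.01, and the polarity partners of Dlg1 0.00 and -0.01. The medians over all genes were 0.003 and -0.005.

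**Figure D5:**
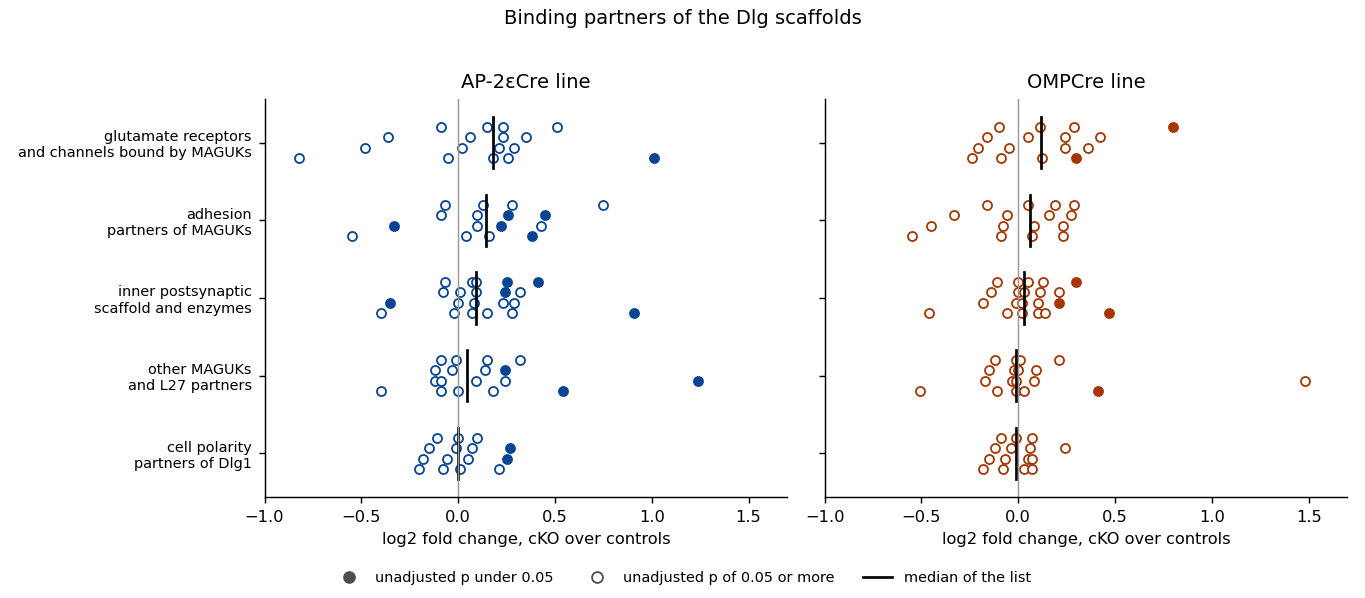
Log2 fold change of cKO over controls for each gene of the 5 partner lists, in AP-2εCre (left) and OMPCre (right); filled points have an unadjusted p under 0.05 and black bars are medians. The medians run from 0.00 to 0.18 in AP-2εCre and from -0.01 to 0.11 in OMPCre, and Grin2c is the filled point at 1.01 and 0.80 in the receptor list.

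Grin2c, an NMDA receptor subunit of the kind whose tail binds Dlg PDZ domains, rose in the fit of both lines together. It was 8.84, 7.195 and 8.98 CPM in AP-2εCre cKO against 2.46 to 5.80 CPM in the 6 controls, and 5.30, 6.25 and 9.08 CPM in OMPCre cKO against 2.76 to 4.94 CPM. Every cKO library was above all controls of its line, as for 2.21% of all genes in AP-2εCre and 1.4% in OMPCre. The mean fold was 1.88 (95% interval 1.47 to 2.40; unadjusted p of 3.95e-05, adjusted p = 0.0390, edgeR). Within a line the folds were 2.02 (1.37 to 2.97; adjusted p = 0.269) and 1.75 (1.24 to 2.46; adjusted p = 0.946). The call was lost when any of 11 single libraries was left out, with log2 fold changes of 0.82 to 0.95 and adjusted p of 0.0568 to 0.191; these were replicates 1 and 2 of AP-2εCre Het, all 3 AP-2εCre cKO, replicates 1 and 2 of OMPCre Smad4flox/flox, replicates 2 and 3 of OMPCre Het and replicates 2 and 3 of OMPCre cKO.

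Magi3, a MAGUK with the guanylate kinase domain inverted in order, was 130, 123 and 160 CPM in OMPCre cKO against 95.6 to 116 CPM in the controls, without overlap (fold 1.32, 95% interval 1.14 to 1.54; edgeR adjusted p = 0.909). In AP-2εCre it was 133.7, 115.3 and 132 CPM against 97.8 to 119 CPM (fold 1.18, 1.04 to 1.34; adjusted p = 0.360). The mean of both lines had an adjusted p of 0.0554. Homer2, which ties Shank to group I metabotropic glutamate receptors, was 168 to 214 CPM in OMPCre cKO and 149 to 168 CPM in OMPCre Het against 111 to 116 CPM in Smad4flox/flox. Both groups with Cre lay above the group without it (Het against Smad4flox/flox, log2 0.48, SE 0.10, edgeR adjusted p = 0.347), so the value for all controls (log2 0.47, adjusted p = 1) mixes a low and a high group.

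Nlgn3, a neuroligin adhesion receptor of the postsynaptic membrane, and Llgl1, a polarity protein that acts with Dlg1 and Scrib, had no overlap between cKO and controls in AP-2εCre and overlapped in OMPCre. Nlgn3 was 14.6 to 16 CPM in AP-2εCre cKO against 10.4 to 13.5 CPM (fold 1.30, 95% interval 1.10 to 1.55; edgeR adjusted p = 0.321), and 12.2 to 12.9 CPM in OMPCre cKO against 11.1 to 16.8 CPM. Llgl1 was 53.4 to 56.9 CPM in AP-2εCre cKO against 42.7 to 50.5 CPM (fold 1.19, 1.06 to 1.34; adjusted p = 0.328), and 45.4 to 52.2 CPM in OMPCre cKO against 45.3 to 59.3 CPM. The difference between the lines was 0.47 on the log2 scale for Nlgn3 (unadjusted p of 0.011) and 0.29 for Llgl1 (unadjusted p of 0.0226), both with an edgeR adjusted p of 1.

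Genes whose pattern over the 18 libraries was most like that of each member were taken from 15838 genes with a mean of at least 1 CPM, by Pearson's r of log2(CPM + 1). The libraries share their depth, their groups and their animals between genes, so this is a description. Closest to Dlg2 were Map1a (r = 0.890, Spearman's coefficient 0.866), a microtubule-associated protein, Ank2 (0.879, Spearman 0.822), an ankyrin, Magi3 (0.858, Spearman 0.752), Kalrn (0.853, Spearman 0.789), a member of the inner scaffold list, and Slc24a2 (0.853, Spearman 0.837), a potassium-dependent sodium-calcium exchanger. The single closest genes were Rsbn1l for Dlg1 (r = 0.932), Trp53rka for Dlg3 (0.791), Map4k4 for Dlg4 (0.878), Zfr2 for Dlg5 (0.864), Mllt11 for Dlgap1 (0.737), Brsk1 for Dlgap3 (0.936) and Alkbh5 for Dlgap4 (0.882). Dlgap2 was below the level needed.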

How the data were processed

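RNA with a RIN above 8 was poly(A) selected, made into stranded dUTP libraries (NEXTflex Rapid directional) and sequenced as single-end reads of 75 bases on a NextSeq 500. The authors quantified reads with Salmon 0.14.0 against mouse transcripts (GRCm38/mm10) and compared groups with DESeq2 1.22.2, per the labels and the study's methods. The deposited files give an estimated count and a TPM for each of 116248 transcripts in each library, with no pooling, and both columns were used as the authors deposited them. The methods name a coding-sequence assembly, but only 35.5% of the transcript lengths are multiples of 3, and pseudogenes and retained introns are listed.

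Estimated counts were summed per gene with GENCODE vM21, leaving out 176 transcripts without a gene (at most 0.0324% of counts), and rounded to whole numbers. Each of 44 symbols with more than one gene ID was kept apart by ID. edgeR 4.0.16 (R 4.3.3, limma 3.58.1) was run with TMM, filterByExpr and the quasi-likelihood test, two-sided, on all genes or all transcripts, and calls were made at an adjusted p (Benjamini-Hochberg) under 0.05. CPM were tested with exact permutation tests over 84 splits of 3 against 6 (smallest p 0.012) or 20 of 3 against 3 (smallest p 0.1), not adjusted. TPM were compared between genes with an exact sign-flip test over 64 patterns on log2(TPM + 0.01). Scripts were tested on simulated data. Python 3.11.15, numpy 2.4.6, pandas 2.3.3, scipy 1.17.1 and matplotlib 3.10.9 were used. DESeq2 1.42.0, other size factors, no filter, length-scaled TPM, single control groups, name form, a replicate block and leaving out single libraries were the alternatives.

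The members and lists were chosen with earlier results of these data known. Named were all 9 genes, the partners called in a main comparison or else the 3 with the smallest p in each, the closest genes by correlation, and Dlg2 transcripts with a mean of at least 10 counts. The p-values weigh a difference against the spread between these libraries, and the pooled controls of a line hold 2 kinds of control. The lowest chi-square between 2 of the 18 libraries was 45 per gene, so none was a repeat of another. A library with conflicting labels was left out of every comparison. Positions are GENCODE vM21 on GRCm38, and promoter sequences are from RefSeq (GRCm38.p6). Count precision covers counting error only.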

Additional observations from a re-analysis of the deposited data

Results flagged for a closer look

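A library of the AP-2εCre line was titled as a heterozygous control but carried the genotype label of a cKO, and it was left out of all comparisons. Its Dlgap2 level was 0.3643 CPM without TMM scaling, from 18 counts, which was above the other 9 libraries of the line (0.1399 to 0.3328 CPM in the controls and 0.1243 to 0.2791 CPM in the cKO). Its Dlg5 level of 118.9 CPM and its Dlgap1 level of 5.809 CPM were above the 6 controls of the line (87.01 to 115.7 and 3.574 to 4.439 CPM) and within the cKO range (107.5 to 124.6 and 5.291 to 6.332 CPM). These 3 values are given because they come from a library outside the comparisons and lay above all its controls. The distance of 1 library from the controls was not tested, and for Dlgap2 the counts are small. Over the 9 genes in the 6 control libraries of each line, 18 sets were searched for a library far from the rest and 0 were found, where chance gives about 1 in 20.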

How the results depend on the processing

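No alternative gave a called member except the form of the animal name as a term of the fit, which called 1, Dlg2, for the mean of both lines (log2 0.33, adjusted p = 0.0339; 0.0848 with DESeq2). In each library left out in turn that log2 fold change was 0.25 to 0.36. For Dlg2 in AP-2εCre the alternatives gave 0.03 to 0.33 and in OMPCre 0.29 to 0.48. DESeq2 called 320 genes against 7 in AP-2εCre, 45 against 0 in OMPCre, 104 against 22 for the mean, 19 against 0 for the difference between the lines, and 128 against 9 and 156 against 14 between the controls. Of the partners, DESeq2 called 1 in AP-2εCre (Grin2c, log2 1.01, adjusted p = 0.0134) and 3 for the mean (Grin2c, Magi3 at 0.32 and Homer2 at 0.44), and the name form called 2 for the mean (Magi3 with Grin2c). Homer2 between the OMPCre controls was called by DESeq2 (0.49). Leaving out single libraries gave 0 to 2 partners called for the mean, and 0 to 1 Dlg2 transcript with a share p under 0.05 in OMPCre.

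The labels do not say that a replicate number marks a shared animal or batch, and not every same-numbered pair had a correlation of deviations over 0.1, so the numbers were not taken to pair the libraries. In AP-2εCre the same-numbered correlations were -0.313 to 0.194 (mean -0.084), and 1 of 9 libraries was closest to its own number. In OMPCre all 9 were positive, at 0.023 to 0.528 (mean 0.242, against -0.118 between other numbers), and 7 of 9 libraries were closest to their own number, which is a hint from the data and not the design. There replicate 3 was also the animal named by the line. With the block Dlg2 in OMPCre was 0.42 with an adjusted p of 0.208. The replicate block called 0 members in each of the 6 comparisons and 0 Dlg2 transcripts in both lines, with an adjusted p of 0.0565 for Dlg2 in the mean, and 2 partners for the mean (Magi3 at 0.32, adjusted p = 0.0287, with Grin2c). It turned Dlgap2 between the OMPCre controls from 0.50 to -0.41, as did the name form (-0.52).

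Other signs turned as follows, some over wide ranges in the least read gene and transcripts, and the cause was not tested. With length-scaled TPM, Dlg5 in AP-2εCre was -0.02, and in OMPCre Dlg1 was 0.10 and Dlgap4 -0.03. Against Smad4flox/flox alone, Dlg5 was -0.01 and Dlgap4 -0.03 in AP-2εCre, and Dlg1 0.03 and Dlg4 0.01 in OMPCre. With all 18 libraries in 1 fit, Dlg1 in OMPCre was 0.0018, and against Het alone Llgl1 in OMPCre was 0.01. Leaving out single libraries gave these ranges that cross 0. In AP-2εCre, Dlg1 was -0.17 to 0.03, Dlgap4 -0.0014 to 0.08, Dlg2-212 -1.24 to 0.14 and Dlg2-213 -0.68 to 0.36. In OMPCre, Dlg1 was -0.10 to 0.05, Dlg5 -0.03 to 0.11, Llgl1 -0.09 to 0.01, Dlg2-201 -0.31 to 0.55 and Dlg2-213 -8.79 to 0.33. Between the AP-2εCre controls, Dlg1 was -0.08 to 0.03, Dlgap1 -0.05 to 0.20, Dlgap3 -0.28 to 0.10, Grin2c -0.08 to 0.59 and Magi3 -0.11 to 0.01. Between the OMPCre controls, Dlg1 was -0.0015 to 0.11, Dlg2 -0.20 to 0.04, Dlg3 -0.02 to 0.10, Dlgap2 -0.66 to 1.22, Dlgap3 -0.04 to 0.20, Grin2c -0.41 to 0.03, Llgl1 -0.20 to 0.01 and Magi3 -0.05 to 0.08. For the difference between the lines, Dlg1 was -0.16 to 0.04, Dlg5 -0.08 to 0.06 and Homer2 -0.14 to 0.03, and for the mean Dlg1 was -0.08 to 0.01 and Dlgap2 -0.02 to 0.57. Between neighbours in the order of levels, 7 of 8 pairs reached the smallest exact p of 0.031, against 6 in Het and 5 over long coding transcripts. Counts limit Dlgap2 most, and a difference in its level was not detectable.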

Other observations

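The other 8 genes in the library with conflicting labels lay within the range of the 9 libraries of its line, in CPM without TMM scaling. Dlg1 was 138 CPM (controls 106 to 140.4 CPM, cKO 107 to 151 CPM) and Dlg3 53.3 CPM (controls 43.8 to 61.2 CPM, cKO 48.8 to 57.0 CPM). Dlgap4 was 64.4 CPM (controls 49.05 to 69.0 CPM, cKO 64.9 to 69.8 CPM). Dlg5 was 118.9 CPM, above the controls and within the cKO range, as given above. Dlg4 was 30.8 CPM, between 22.5 and 32.0 CPM in the controls and below the 34.2 to 39.5 CPM of the cKO. Dlg2 was 23.3 CPM (controls 15.6 to 25.9 CPM, cKO 23.2 to 26.4 CPM) and Dlgap3 was 22.4 CPM (controls 11.3 to 23.0 CPM, cKO 23.9 to 27.7 CPM). Dlgap1 was 5.81 CPM, above the 3.57 to 4.44 CPM of the controls and among the 5.29 to 6.33 CPM of the cKO. These values put the library in no group.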
